A study of Mus musculus with 8 samples.

Results

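The genes described here are 7 receptors for growth factors of blood cells (Kit, Flt3, Epor, Csf1r, Csf2ra, Csf2rb and Csf3r) and Kitl, the ligand of Kit. They were chosen by name, as the array's probes whose gene name, current or older, is one of these 8 symbols. All 8 genes were on the array, with 13 probes among 55681 non-control probes, and each of the 8 is represented among the 40241 features tested (21526 of them with a gene symbol). The brightest probe well above background stood for a gene. For each of the 8 genes it was well above background on all 8 arrays and saturated on none, so every gene passed the filter on dim probes.

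The mutant group held 4 mouse embryos with both copies of the +9.5 element of Gata2 mutated by targeting (+9.5 -/-), an intronic enhancer of the gene for the transcription factor GATA-2. The wild type group held 4 littermates. Both came from matings of +9.5 +/- males and females on a C57Bl/6J background and were taken at E12.5, with 2 mutants and 2 wild types in each of 2 litters. Cells bearing CD31, an adhesion molecule of endothelium, platelets and part of the blood cells, were bound to antibody-coated magnetic beads from the carcass of 1 embryo per array, after the liver and brain had been removed. The mutation came through the germ line and is not limited to 1 cell type. The sample is enriched bulk tissue, in which fewer cells of a type and less RNA per cell cannot be told apart.

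Kit, Flt3 and Csf1r are receptor tyrosine kinases that pair up when their ligands bind. Epor, Csf3r and the Csf2ra and Csf2rb subunits have no kinase of their own and signal through Jak kinases and STAT factors. Kit is known for stem cells, mast cells, melanoblasts and germ cells, Flt3 for multipotent and lymphoid progenitors, and Epor for red cell precursors. Csf1r is known for macrophages, Csf3r for neutrophils, and Csf2rb as the shared signalling chain of the receptors for GM-CSF, IL-3 and IL-5.

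Gata2 itself served as the check of the genotype. Its level, as log2 signal relative to the 75th percentile of the array (the scale of every level below), was -1.24, -0.15, -1.27 and -1.07 in mutants 1 to 4, against 2.00, 1.66, 0.89 and 1.42 in wild types 1 to 4. The difference of -2.42 ± 0.39 (SE; mutant minus wild type) is 5.36-fold lower in mutants, and every mutant array lay under every wild type array. The limma adjusted p was 0.0858. Embryos 1 and 2 of each genotype were litter 1 and embryos 3 and 4 litter 2, and each litter shared a slide. Between 74.9% and 92.0% of spots per array were well above background, and arrays correlated at 0.892 to 0.980. Along the first principal component (58.9% of variance) wild types 2 and 3 and mutant 4 stood apart.

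Relative to wild types, mutants read 3.00-fold lower for Csf2rb, 2.43-fold lower for Flt3 and 1.57-fold lower for Epor. For Kit, Kitl, Csf1r, Csf2ra and Csf3r the genotypes overlapped and the 95% interval of the difference included 0. Flt3 also overlapped, at the edge, and the Epor interval also included 0. The values of Csf2rb and Flt3 are those of the brightest probe, and their other probes differed less. Of the 8 genes, 0 passed an adjusted p of 0.05 in limma, a threshold that 0.0447% of all features (18, each lower in mutants) passed. At an unadjusted p under 0.05, 2 of the 8 were called, Csf2rb and Flt3, beside 3.05% of all features. With litter as a block the number was 3, with Epor added, beside 4.86% of all features. That block left 0 of the 40241 features past the adjusted threshold, with a lowest adjusted p of 0.0531. In Csf2rb and Epor, 2 of the 8, all mutant arrays lay under all wild type arrays, as in 0.532% of all features. All mutant arrays lay over all wild type arrays in 0 of the 8, beside 0.504% of all features. In the median over the 8 genes the difference was -0.29, with 5 lower and 3 higher in mutants. Csf3r, among those higher, was read by a probe that shares runs of bases with probes of other genes. In the median over all features it was 0.05, with 47.6% lower.

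**Figure D1:**
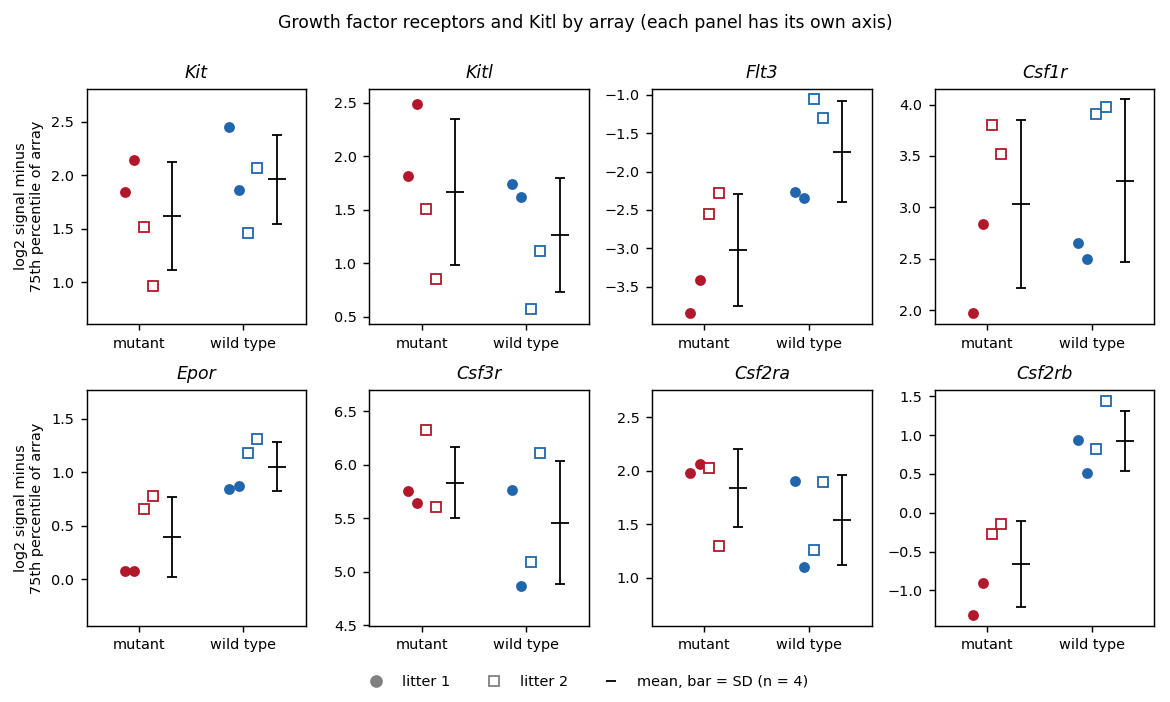
Level of each gene on each array (vertical axis: log2 signal minus the 75th percentile of the array), with mutants left of wild types in each panel, litter 1 as filled circles, litter 2 as open squares, and the mean with its SD in black (n = 4). Mutants lie under wild types without overlap for Epor and Csf2rb, and Flt3 and Csf1r are higher in litter 2 than in litter 1 within both genotypes.

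Csf2rb, the common beta chain, read -1.32, -0.91, -0.27 and -0.14 in mutants 1 to 4, against 0.94, 0.51, 0.83 and 1.44 in wild types 1 to 4. The mutant closest to the wild types, mutant 4, was still 0.65 below the nearest of them. The mean was -0.66 ± 0.55 in mutants and 0.93 ± 0.39 in wild types (SD, n = 4 each), a difference of -1.59 ± 0.38 (SE, 95% interval -2.42 to -0.75). By limma its unadjusted p of 0.0016 was the 75th lowest of the 40241 features, and the adjusted p was 0.717. Over the settings tried, the adjusted p ran between 0.0470 and 0.997, and array weights gave the lowest. In an exact two-sided permutation test of the 4 mutant and 4 wild type arrays p was 0.0286, the smallest that the 70 arrangements allow. That test was run for each of the 8 genes and is given without adjustment. Within litter 1 the mutants differed by -1.83, and within litter 2 by -1.34.

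The Csf2rb probe in question lies at chr15:78181168-78181227 (mm9, plus strand), and a second Csf2rb probe at chr15:78179504-78179563 read -2.24, -2.16, -1.97 and -2.28 in mutants, against -1.38, -2.14, -2.11 and -1.33 in wild types. There the groups overlapped, and the difference was -0.43 ± 0.33 (SE), with a limma adjusted p of 0.717. Mouse has a second beta chain gene, Csf2rb2, whose product serves the IL-3 receptor. Its brightest probe, at chr15:78113126-78113185, read -2.05, -1.43, -1.27 and -0.75 in mutants, against -0.07, -0.53, 0.13 and 0.34 in wild types. Mutants were 2.53-fold lower there without overlap (difference -1.34 ± 0.38, SE; limma adjusted p = 0.717). A second Csf2rb2 probe, at chr15:78114097-78114156, read -3.04, -3.45, -2.47 and -1.84 in mutants, against -1.58, -1.97, -1.47 and -1.03 in wild types. There the difference was -1.19, and mutant 4 lay above wild type 2. The sequences of the brightest probe of each gene are shown because they are alike: in the 30 bases that match best, 27 are the same, and capitals mark the 3 that differ.
Csf2rb: ggcagatcaaAtgtCccttggtctCtgttc
Csf2rb2: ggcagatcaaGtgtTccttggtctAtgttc
The second Csf2rb probe matched no Csf2rb2 probe at more than 14 of 30 bases. How far transcripts of 1 gene bind the probe of the other was not tested, so the values of these brightest probes may share signal.

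Csf2ra, the alpha chain that binds GM-CSF, read 1.97, 2.06, 2.02 and 1.29 in mutants, against 1.90, 1.10, 1.26 and 1.89 in wild types (probe at chr19:61300336-61300395, mm9). Mutants 1 to 3 lay over every wild type array and mutant 4 lay among them. The difference was 0.30 ± 0.35 (SE, 95% interval -0.48 to 1.08; limma adjusted p = 0.721). Il3ra and Il5ra are the alpha chains of the IL-3 and IL-5 receptors, which share Csf2rb. Il3ra differed by 0.21 ± 0.35 and Il5ra by -1.23 ± 0.54 (SE), with limma adjusted p of 0.774 and 0.717. Csf2, the gene for GM-CSF, differed by -0.70 ± 0.58 (SE) and was well above background on 3 mutant and 4 wild type arrays. Its limma adjusted p was 0.717.

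Flt3 read -3.84, -3.41, -2.56 and -2.28 in mutants, against -2.27, -2.34, -1.06 and -1.30 in wild types (brightest probe, chr5:148142576-148142635, mm9, minus strand). The groups overlapped only at the edge, where mutant 4, of litter 2, read 0.06 above wild type 2, of litter 1. Each of the 4 mutants lay under both wild types of its own litter. The mean was -3.02 ± 0.73 in mutants and -1.74 ± 0.66 in wild types (SD, n = 4 each), and the mutants differed by -1.28 ± 0.46 (SE, 95% interval -2.30 to -0.26). The limma p was 0.0186 unadjusted and 0.717 adjusted, and the exact permutation p was 0.0571. With litter as a block the unadjusted limma p was 0.000718 and the adjusted p 0.366. The 2 litters gave -1.32 (litter 1) and -1.24 (litter 2).

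The other 2 Flt3 probes did not show this difference. The probe at chr5:148178496-148178555, 35.9 kb from the brightest, read -4.49, -3.84, -3.66 and -2.28 in mutants, against -4.19, -3.59, -3.65 and -3.05 in wild types, a difference of 0.05 ± 0.48 (SE). The probe at chr5:148174133-148174192, 31.6 kb from the brightest, differed by -0.22 ± 0.64 (SE) and was well above background on 5 of the 8 arrays. Their limma adjusted p were 0.960 and 0.866. The brightest probe is thus the only 1 of the 3 whose genotypes nearly separate, and which transcripts each probe reads was not tested. Flt3l, the Flt3 ligand, differed by -0.41 ± 0.37 (SE, limma adjusted p = 0.717).

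Epor read 0.08, 0.08, 0.66 and 0.78 in mutants, against 0.85, 0.87, 1.18 and 1.31 in wild types (chr9:21763422-21763481, mm9, minus strand). The groups did not overlap, but the highest mutant lay only 0.07 below the lowest wild type. The mean was 0.40 ± 0.37 in mutants and 1.05 ± 0.23 in wild types (SD, n = 4 each), and the difference was -0.65 ± 0.33 (SE, 95% interval -1.38 to 0.07). The limma p was 0.0729 unadjusted and 0.717 adjusted. With litter as a block the unadjusted limma p was 0.0249 and the adjusted p 0.560, and the exact permutation p was 0.0286. Litter 1 alone gave -0.78 and litter 2 alone -0.53. Of the erythroid markers, 9 of the 13 tested were higher in mutants, with a median difference of 0.35. Among the 13, 1 was lower without overlap, beside 0.532% of all features. Their summed linear level ran from 712 to 1974 times the 75th percentile in mutants and from 330 to 2019 in wild types. The globin genes gave nearly all of that sum on every array. Epo, the ligand, read -3.16, -3.21, -2.83 and -1.04 in mutants, against -1.94, -0.91, -0.31 and -2.06 in wild types, a difference of -1.25 ± 0.57 (SE, limma adjusted p = 0.717) with overlap.

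The Epor promoter is shown because it held a GATA motif, the letters that GATA factors are known to bind. Capitals mark the motif, which starts 54 bases before the gene's start. The 250 bases before the start (RefSeq, GRCm38.p6, chr9:21963577-21963826, minus strand) are printed 5′ to 3′ along the gene.
Epor: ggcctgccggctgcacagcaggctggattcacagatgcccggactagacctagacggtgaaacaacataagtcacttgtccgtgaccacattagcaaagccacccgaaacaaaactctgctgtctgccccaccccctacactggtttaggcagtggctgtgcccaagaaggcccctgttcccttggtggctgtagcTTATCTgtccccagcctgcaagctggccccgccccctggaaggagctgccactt
The search covered both strands of the same 250 bases for the letters AGATAA, for the letters AGATAG, for the letters TGATAA and for the letters TGATAG. RefSeq windows were found for 6 of the 8 genes (7 windows, 2 of them for Kit), and Csf1r and Csf2rb were not matched. Epor was the 1 gene of those 6 with such letters, and 26.5% of all 32851 windows of this length held them. Letters known from PU.1 sites (GAGGAAGT or GGGGAAGT, both strands) were in 1 of the 6, Flt3, and in 3.64% of all windows. Such a match is a description of the letters only.

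Kit read 1.85, 2.15, 1.52 and 0.97 in mutants, against 2.45, 1.87, 1.46 and 2.07 in wild types (chr5:76052394-76052453, mm9, plus strand). The groups overlapped, with wild type 1 highest and mutant 4 lowest. The difference was -0.34 ± 0.38 (SE, 95% interval -1.17 to 0.48; limma adjusted p = 0.717; exact permutation p = 0.4), with -0.16 from litter 1 and -0.52 from litter 2. Of the mast cell markers, 8 of the 10 tested were lower in mutants, beside 47.6% of all features. They were lower without overlap in 4, beside 0.532% of all features. The adjusted threshold was passed by 1, Hdc, beside 0.0447% of all features. The summed linear level of the 10 ran from 3.97 to 5.30 times the 75th percentile in mutants and from 10.67 to 22.6 in wild types. The brightest marker, which differed by -1.31 ± 0.34 (SE), gave the largest part of that sum on every array. Ms4a2 was well above background on none of the arrays. The median difference was -0.04 for germ cell markers (5 of 10 lower) and -0.22 for melanoblast markers (4 of 7 lower, with Tyrp1 dim on all arrays).

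Kitl, the ligand of Kit that stromal and endothelial cells present, read 1.81, 2.49, 1.50 and 0.85 in mutants, against 1.74, 1.62, 0.57 and 1.11 in wild types (chr10:99558962-99559021, mm9, plus strand). The 2 highest arrays were mutants and the groups overlapped. The difference was 0.40 ± 0.43 (SE, 95% interval -0.54 to 1.35; limma adjusted p = 0.717). Endothelial markers were higher in mutants in 11 of 14, with a median of 0.23, and mesenchymal and pericyte markers in 7 of 10, with a median of 0.13, and none of either list passed the adjusted threshold.

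**Figure D2:**
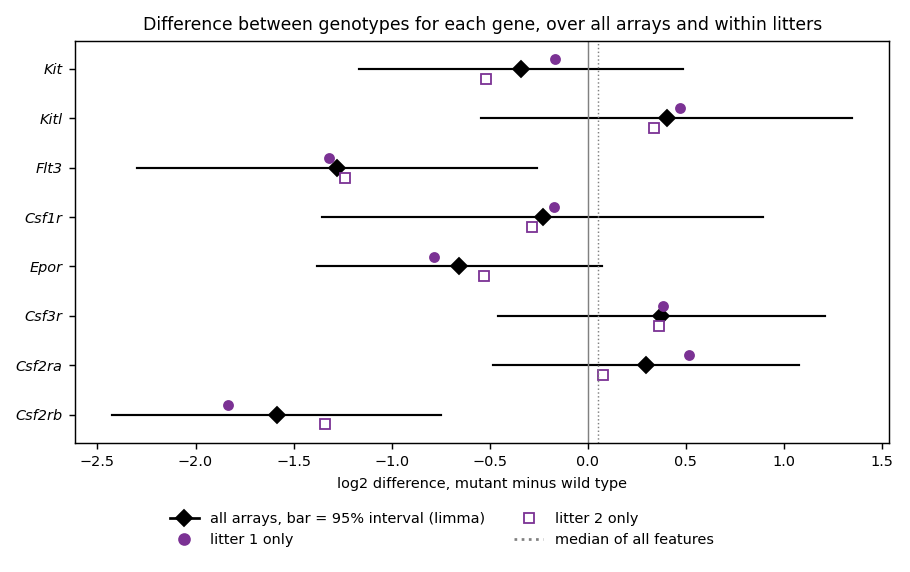
Difference between genotypes for each gene (horizontal axis: log2, mutant minus wild type) over all 8 arrays with its 95% interval, and in litter 1 and litter 2 alone. The intervals of Flt3 and Csf2rb lie below 0. For the brightest probe of each gene, the only probe drawn, both litters lie on the same side of 0.

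By the brightest probe, both litters gave a difference of the same sign for each of the 8 genes, with 2 mutants and 2 wild types per litter. The share of all features with such agreement was not counted. For both other Flt3 probes the sign changed (-0.27 and -1.06 in litter 1, 0.38 and 0.62 in litter 2). It also changed for the Csf1r probe that differed by 0.04 over all arrays (0.35 in litter 1, -0.28 in litter 2). The remaining Csf1r and Csf2rb probes were lower in mutants in both litters. The test of a different genotype effect between litters gave 0 of the 8 genes at an unadjusted limma p under 0.05, beside 1.22% of all features, with a lowest p of 0.459 for Csf2rb. At that size of design the difference between litters is poorly measured, with an SE of 0.64 for Csf2rb.

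Csf3r, the G-CSF receptor, read 5.76, 5.65, 6.32 and 5.60 in mutants, against 5.77, 4.87, 5.09 and 6.11 in wild types (chr4:125721478-125721537, mm9, plus strand). The groups overlapped. The difference was 0.37 ± 0.38 (SE, 95% interval -0.46 to 1.21; limma adjusted p = 0.717), and it was -0.04 after quantile normalization. Granulocyte markers were lower in mutants in 11 of 13, beside 47.6% of all features, with a median of -1.46. They were lower without overlap in 6, beside 0.532% of all features. Of those 6, 1 was well above background on 1 mutant array and 4 wild type arrays, so no result is drawn from its separation. Mpo, S100a8, S100a9 and Prg2 passed the adjusted threshold, beside 0.0447% of all features. The summed linear level of the 13 markers ran from 2.59 to 3.96 times the 75th percentile in mutants and from 12.3 to 18.7 in wild types. Csf3, the ligand, differed by -1.02 ± 0.59 (SE, limma adjusted p = 0.717), with 1 wild type value missing.

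The Csf3r probe is shown because part of it recurs elsewhere. Capitals mark the run of 18 bases found in the largest number of other probes (2), within bases 28 to 57 of the 60-base probe.
Csf3r: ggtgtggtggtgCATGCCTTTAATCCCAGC
A run of 18 bases of this probe was in 5 other probes of the array and in 6 of the 32851 RefSeq promoter windows of 300 bases. None of the other 12 probes of these 8 genes had such a run in another gene's probe or in any window. The 5 probes were higher in mutants by 0.27 to 0.46, with a median of 0.35, and Csf3r itself by 0.37. The median difference was 0.05 over all features and 0.17 over those well above background on all 8 arrays. The linear signal of the Csf3r probe was 41808 to 109549. Only the array's probes and these promoter windows were searched, so how often such runs recur in other transcripts was not counted. Whether the probe reads Csf3r or other transcripts was not tested, so the value is that of the probe.

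Csf1r, the receptor of M-CSF and IL-34, read 1.97, 2.84, 3.81 and 3.52 in mutants, against 2.65, 2.50, 3.91 and 3.97 in wild types, by its brightest probe. The groups overlapped, and the difference was -0.23 ± 0.51 (SE, 95% interval -1.35 to 0.90; limma adjusted p = 0.824). After subtracting each array's median instead it was 0.04. The other 2 probes differed by -0.45 ± 0.61 and 0.04 ± 0.46 (SE), with limma adjusted p of 0.739 and 0.971. The macrophage markers had a median difference of -0.14 (10 of 14 lower), and 0 passed the adjusted threshold or separated the genotypes. Their summed linear level ran from 26.0 to 47.1 times the 75th percentile in mutants and from 25.9 to 46.1 in wild types. The brightest marker, which differed by 0.27 ± 0.37 (SE), gave the largest part of that sum on every array. Of the ligands, Csf1 differed by 0.11 ± 0.34 and Il34 by -0.80 ± 0.40 (SE), with limma adjusted p of 0.872 and 0.717.

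Litter separated Csf1r where genotype did not. The arrays of litter 2 read 3.52 to 3.97 and those of litter 1 read 1.97 to 2.84, with both genotypes in each. The difference between litters was 1.31 for the brightest Csf1r probe, 1.75 and 1.02 for the others, with limma adjusted p of 0.0366, 0.0134 and 0.0915. Flt3 was also higher in litter 2, by 1.16 for the brightest probe (limma adjusted p = 0.0389) and by 0.86 and 1.43 for the others (0.190 and 0.103). Csf1r and Flt3 were the 2 of the 8 genes past the adjusted threshold for litter, beside 4.92% of all features. The median litter difference of all features was 0.32, and after quantile normalization, which took it to 0.03, Flt3 differed by 0.64 and did not pass. Macrophage markers moved with Csf1r: 6 of 14 passed for litter, with a median of 1.16. Erythroid markers passed in 6 of 13, with a median of 1.39, and endothelial markers in 5 of 14, with a median of -1.02. Litter and slide cannot be told apart, and the part of these cell types in the litter difference was not tested.

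**Figure D3:**
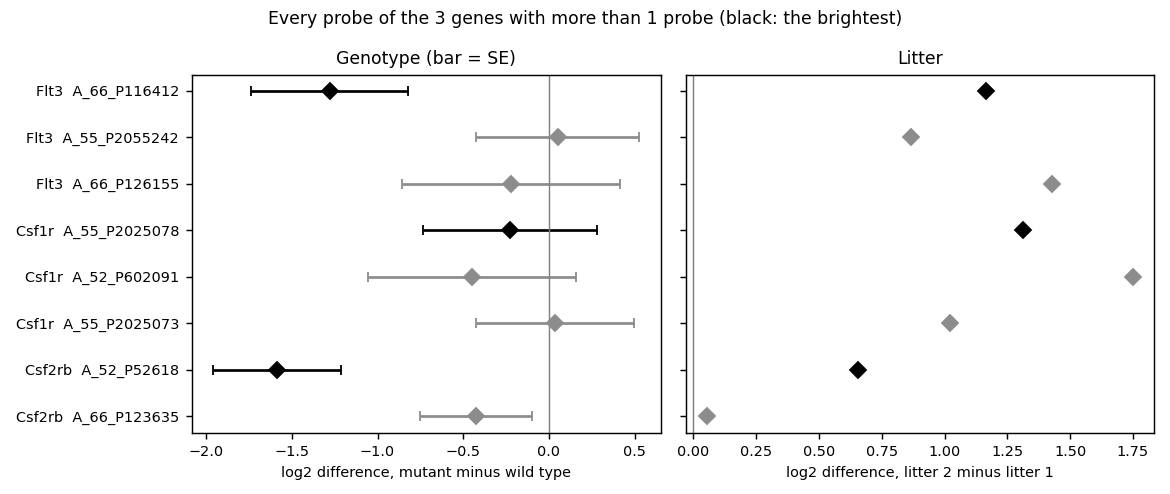
Every probe of Flt3, Csf1r and Csf2rb, with the difference between genotypes and its SE at left and the difference between litters at right (horizontal axes: log2; black: brightest probe of the gene). For Flt3 and Csf2rb the brightest probe differs more between genotypes than the others, and all 3 Csf1r probes lie above 0 for litter.

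The ligands and the signalling genes downstream were counted to place these values. No gene of the 6 lists below passed the adjusted threshold, beside 0.0447% of all features. Over all features the median difference was 0.05, with 47.6% lower, and it was 0.17 over those well above background on all 8 arrays. All mutant arrays lay under all wild type arrays in 0.532% of all features and over them in 0.504%. The lists differ in signal level, and its part in their medians was not tested. The 9 ligands tested had a median of -0.70 in mutants relative to wild types, and 8 were lower and 0 separated the genotypes. Most ligand probes lay below the 75th percentile of the array. Of 14 partner and related receptors, 6 were lower, and 3 separated the genotypes, among them Csf2rb2 and Il7r. Il7r was well above background on the wild type arrays alone and passed the filter on dim probes only through them, so no result is drawn from its separation. The brightest of that list, Kdr and Flt1, receptors of VEGF in endothelium, differed by 0.33 ± 0.54 and 0.04 ± 0.47 (SE).

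The 14 kinases and STATs (4 lower, 10 higher) had a median of 0.18. Btk, a kinase of B cells, mast cells and platelets, read -1.77, -1.02, -1.54 and -0.51 in mutants, against 0.06, 0.67, 0.74 and 0.61 in wild types. It was the 1 gene of its list without overlap, with a difference of -1.73 ± 0.37 (SE, limma adjusted p = 0.541). Stat3 and Fes differed by 0.25 ± 0.33 and 0.33 ± 0.40 (SE). Of 17 adaptors and effectors, 13 were higher, with a median of 0.29. Sos1, an exchange factor for Ras, was higher without overlap by 1.17 ± 0.41 and was well above background on 2 wild type arrays. Vav1, an exchange factor of blood cells, differed by -1.20 ± 0.43, and Akt1 and Mapk3 by 0.39 ± 0.39 and 0.29 ± 0.40 (SE).

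Of 13 negative regulators, 9 were higher, with a median of 0.29. The adaptor Dok2 and the phosphatase Ptpn6, both of blood cells, differed by -1.08 ± 0.41 and -0.73 ± 0.44, and Socs3 and Ptpn11 by 0.31 ± 0.38 and 0.45 ± 0.37 (SE). Of 10 genes known as targets of Stat5, 8 were higher, with a median of 0.31. Ccnd2, Tfrc, Ccnd3 and Mcl1 differed by 0.49, 0.44, 0.38 and 0.27.

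**Figure D4:**
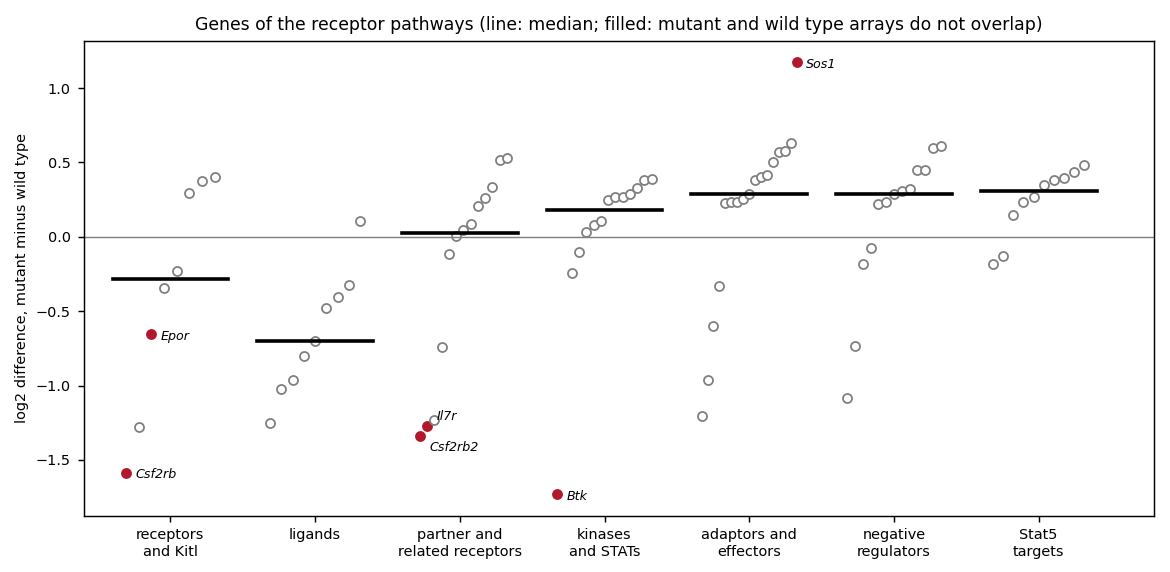
Difference of each gene (vertical axis: log2, mutant minus wild type) in the 8 genes described and in 6 lists of ligands and signalling genes, with the median of each full list as a line. A few genes that are not reported here are not drawn. Filled points, named, are genes whose mutant and wild type arrays do not overlap: Csf2rb, Epor, Csf2rb2, Il7r and Btk below 0 and Sos1 above it. Il7r passed the filter on dim probes through the wild type arrays alone.

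Markers of platelets and of progenitors were counted too. Megakaryocyte and platelet markers were lower in all 12 tested, beside 47.6% of all features, with a median of -2.60. They were lower without overlap in 11, beside 0.532% of all features. The adjusted threshold was passed by 3 (Treml1, Gp9 and Gp1ba), beside 0.0447% of all features. The summed linear level of the 12 ran from 13.9 to 22.7 times the 75th percentile in mutants and from 57.0 to 114 in wild types. On every array but mutant 1 the brightest marker, which differed by -2.75 ± 0.42 (SE), gave the largest part of that sum. The stem and progenitor markers had a median of -0.42 (11 of 17 lower). The 1 past the threshold, Slamf1, was well above background on 0 of the 4 mutant arrays and on 4 of the 4 wild type arrays. Slamf1 thus passed the filter on dim probes through the wild types alone, and no result is drawn from its call. The part of these cell types in the values of Csf2rb, Flt3 and Epor was not tested.

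The genes whose pattern over the 8 arrays was most like that of each receptor were looked up among 12592 or 12593 other named genes with an SD over 0.5. For Csf2rb they were P2rx1 (Pearson r 0.993), Gata1 (0.988) and Ltb4r1 (0.979). For Flt3 they were Rhof (0.985), Ripor3 (0.977) and Il1r2 (0.976), and for Epor Prtn3, Spns3 and 4921504A21Rik (0.983, 0.983 and 0.982). For Csf1r they were Ccl4 (0.986), Xlr5a (0.985) and Fcrls (0.982). For Kit they were Ramp3 (0.987), Nup210 (0.968) and Ly6c1 (0.962), and for Kitl Tusc1, Pttg1 and Slc16a13 (0.987, 0.976 and 0.974). For Csf2ra they were Sf3b2, Fkbp4 and Rangap1 (0.990, 0.989 and 0.985), and those for Csf3r included Dvl1 and Ankrd23 (0.989 and 0.987). These are the highest of many correlations over the same 8 arrays and are given as descriptions. The arrays cover both genotypes and both litters, and each litter shared a slide.

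In the authors' deposited table, 7 of the 8 genes had the same brightest probe, and the Epor probe was not among its rows. There the log2 fold change (mutant over wild type) was -1.32 for Csf2rb, -1.01 for Flt3, -0.08 for Kit, 0.04 for Csf1r, 0.56 for Csf2ra, 0.64 for Csf3r and 0.67 for Kitl. In the authors' deposited table the median over all 50120 probes was 0.41, against which Csf2rb, Flt3, Kit and Csf1r lay lower and the others higher. The lowest adjusted p among these genes in the authors' deposited table was 0.624. There limma's t kept the same ratio to the log2 fold change for every probe of these genes. Those p-values thus rest on a common SE, unlike the limma fits above, where the SE differs by gene, and are not a like measure.

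**Figure D5:**
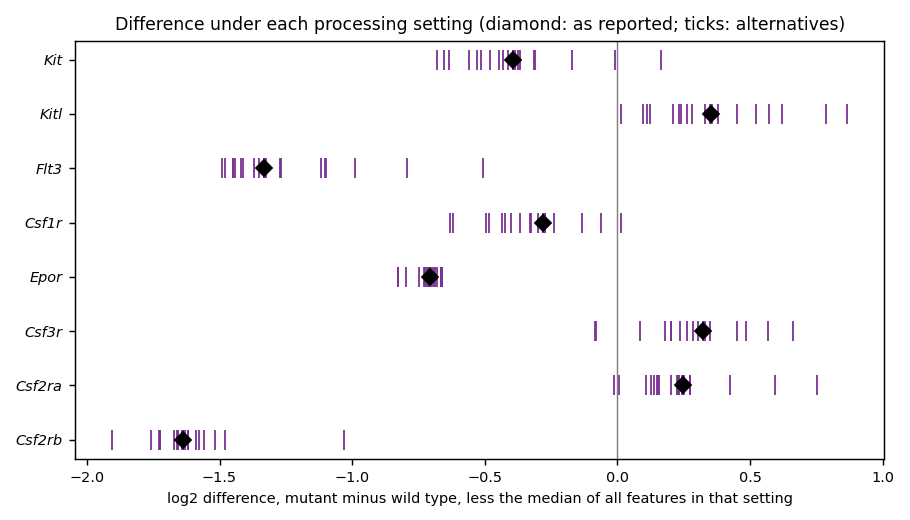
Difference of each gene between genotypes (horizontal axis: log2, mutant minus wild type, less the median of all features in the same setting), as reported (diamond) and under each other processing setting (ticks). Csf2rb, Flt3 and Epor lie below 0 under each setting, while Kitl comes down to 0.01, and Kit, Csf1r, Csf2ra and Csf3r cross 0 under some.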

How the data were processed

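RNA of CD31+ cells from 4 mutant and 4 wild type embryos was hybridised to 1-colour Agilent arrays, 1 embryo each. Per the file headers, the deposited intensity is the processed signal of Agilent Feature Extraction 10.7.3.1 (mm9 annotation), background-subtracted and with no scaling between arrays. The log2 values, log2 fold changes and p-values of the authors' deposited table came from limma (no version) according to the submitters' processing notes, and served as an alternative. The authors' deposited table also holds a score, limma's t, per the file header, which was used only for its ratio to the log2 fold change.

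From the deposited intensities, log2 signals were scaled to the array by subtracting its 75th percentile (non-control spots), and control and outlier spots were left out. Probes well above background on at least 4 arrays were kept. The brightest stood for its gene, and features needed 3 values per group. Genotypes were compared with limma 3.58.1 in R 4.3.3 (two-sided, Benjamini-Hochberg over 40241 features, threshold 0.05), without a covariate. The code was run on simulated data with independent noise and no litter effect, so that check does not cover the litter difference of these arrays. Litter was tested with genotype in the model, and values from a fit with a litter block stand where calls change. Litter is shared by both genotypes per the labels, and the sample numbers pair nothing: deviations of same-numbered arrays correlated at 0.62, -0.03, -0.09 and -0.16. Alternatives were other scalings, filters, backgrounds, weights and blocks, the deposited values, and leaving out arrays.

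The 8 genes and the lists of ligands, partner receptors, kinases and STATs, adaptors, negative regulators, Stat5 targets and cell type markers (mast cell, granulocyte, macrophage, erythroid, platelet, progenitor, endothelial, germ cell, melanoblast, mesenchyme) were chosen with earlier results of these data known. From each pathway list the text names genes past the threshold, the 2 with the largest difference and the 2 brightest. From each marker list it names those past the threshold that were measured on both genotypes, and also Slamf1, which was not. Others are named for a ligand pair, a shared chain or a lack of overlap. A few genes that these rules pick are not reported here. Embryos are separate animals, and their number limits the precision. Probes were not placed in exons or UTRs, since no mm9 annotation was used here.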

Additional observations from a re-analysis of the deposited data

Results flagged for a closer look

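Csf2ra in mutant 4 lay far from the other mutants. It read 1.29, against 1.97, 2.06 and 2.02 in mutants 1 to 3, and the gap to the nearest mutant took up 0.887 of the group's whole range. Among the 26 groups of 4 arrays looked at in this way (13 probes, both genotypes), this was the 1 past the 95% limit, and chance marks about 1 in 20. Mutant 4 is also 1 of the 3 arrays that the first principal component set apart.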

How the results depend on the processing

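The number of features past the adjusted threshold for genotype, 18 as reported, was 1 after quantile normalization, 39 with normexp, 3 with normexp and quantile normalization, 8 without a filter, 30 with a floor, 31 with trend and robust moderation, 52 with the authors' deposited values, 3785 with array weights, 0 with litter or with the sample number as a replicate block, and 0 without wild types 2 and 3 and mutant 4. Leaving out each array in turn gave 0 to 24. It was 0 without wild type 1, 3 or 4 or mutant 1 or 3, and 6 without wild type 2. Of the 8 genes, 0 passed under 21 alternatives and 2, Csf2rb and Flt3, with array weights (-1.83 and -1.66). Leaving out each array gave 0 to 0.

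For litter, 2 of the 8 passed as reported, and 0 with median scaling, the deposited values or without the 3 arrays together. The number was 1 with normexp, without a filter, with the mean of all probes, or with trend and robust moderation, 3 with array weights, and 0 to 2 when each array was left out. Of those, it was 2 only without wild type 2 and 0 without any other array.

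Csf2rb, Flt3, Epor and Kit were lower in mutants, and Kitl and Csf2ra higher, under each alternative run. Csf2rb ran from -2.02 to -1.01, Flt3 from -1.66 to -0.48 and Epor from -0.86 to -0.39. Kit (-0.34 as reported) ran from -0.64 with quantile normalization to -0.0084 with array weights, and was -0.13 without mutant 4, -0.18 without wild type 1 and -0.52 without mutant 2. Kitl (0.40) ran from 0.13 without mutant 2 to 0.69 with array weights, and was 0.17 without wild type 3 and 0.67 without mutant 4. Csf2ra (0.30) ran from 0.033 with quantile normalization to 0.58 with array weights, and was 0.15 without wild type 2 and 0.48 without mutant 4. Csf1r turned to 0.036 with median scaling and with the deposited values, and ran from -0.49 to 0.13 when each array was left out, above 0 without wild type 4 (0.0094) and without mutant 1 (0.13). Csf3r turned to -0.040 with quantile normalization, to -0.042 with normexp and quantile normalization, and to -0.028 without the 3 arrays. The median of all features, 0.05 as reported, was 0.32 with median scaling, 0.40 with the deposited values and -0.17 with array weights. The causes were not tested. With median scaling or the deposited values 1 of the 8 genes separated the genotypes. Signals near background limit 1 Flt3 probe, well above background on 5 of 8 arrays, and the ligands Thpo, Csf2, Csf3 and Il5, well above it on 6 or 7.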
